A study of Mus musculus with 72 samples.

Results

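The chamber identity of the adult mouse heart was examined in 12 RNA-seq libraries, the atria and the ventricles of 6 wild-type mice, out of the 72 libraries of the series. Members were chosen by their sample titles, in which each mouse number occurs once under atria and once under ventricles, so the comparison was made within the animal (mice 7, 8, 15, 16, 17 and 18). All 6 were males of 18 weeks and Gnb5+/+ animals of a line in which exon 3 of Gnb5, the gene of an atypical G protein β subunit, is deleted on a C57BL/6J background. The same chambers of 6 Gnb5+/− and 6 Gnb5−/− males of that age, 12 libraries of each genotype, gave the same comparison in other animals. Both atria of a heart were pooled into a library, and so were both ventricles, so left and right sides cannot be told apart. By the study's account the atrial tissue also held sinoatrial and atrioventricular cells.

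Atrial and ventricular muscle share the machinery of contraction but differ in the isoforms they use, in their electrical properties and in what they secrete. Atria fill the ventricles, start and conduct the heartbeat and release natriuretic peptides when stretched, whereas ventricles pump against the arterial pressure and depend heavily on the oxidation of fatty acids. Chamber identity is set in the embryo by transcription factors such as TBX5, NR2F2, IRX4 and HEY2, and many of the genes they act on remain chamber-restricted in the adult.

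Between 30277796 and 43013334 reads were counted on genes per library, without a chamber difference past the test (exact p 0.312, two-sided exact permutation test of the signs of the 6 within-mouse differences, for which the smallest p is 0.03125). Reads outside genes made up 5.63% to 6.57% in atria and 4.41% to 5.52% in ventricles, higher in atria in 6 of 6 mice (exact p 0.0312). Mitochondrially encoded genes took 23.4%, a median of 25.8% and 34.5% of the gene counts in atria, and 28.1%, 39.7% and 43.5% in ventricles, higher in ventricles in 6 of 6 mice (exact p 0.0312). Levels are therefore given as CPM (counts scaled to a common library total) after TMM normalization, which scales libraries by the bulk of their genes, and log2 differences are atria minus ventricles from edgeR's paired fit, positive where atria were higher. With total gene counts as the scale the median difference of all genes was 0.45 in place of −0.0011, and with the total of nuclear genes it was 0.20. A gene is called when its Benjamini-Hochberg adjusted p over all 15147 genes tested was below 0.05.

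Some libraries stood apart in genes of the opposite chamber. Myl2, which marks ventricular muscle, reached 10.3% of its ventricular mean in the atria of mouse 16 and 6.48% in those of mouse 18, against 0.0184% to 3.03% in the other 4 atria. Myl3 and Irx4, also ventricular, were highest in the same 2 atrial libraries, at 6.95% and 8.38% of the ventricular mean in mouse 16 and 7.37% and 8.40% in mouse 18. Atrial genes in ventricles stayed lower, with Nppa at 0.532% to 1.30% and Myl7 at 0.470% to 1.91% of their atrial means. The first principal component of the log2 CPM values held 67.1% of the variance and separated the chambers. Ventricles lay at −62.6 to −56.1 and 4 of the atria at 62.9 to 66.8. The atria of mice 16 and 18 lay nearest to the ventricles, at 49.96 and 53.16. The part of ventricular tissue in these atrial libraries was not tested. Some of the values that these libraries move are given again without mice 16 and 18. A value without such a repeat is not thereby stable.

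**Figure D1:**
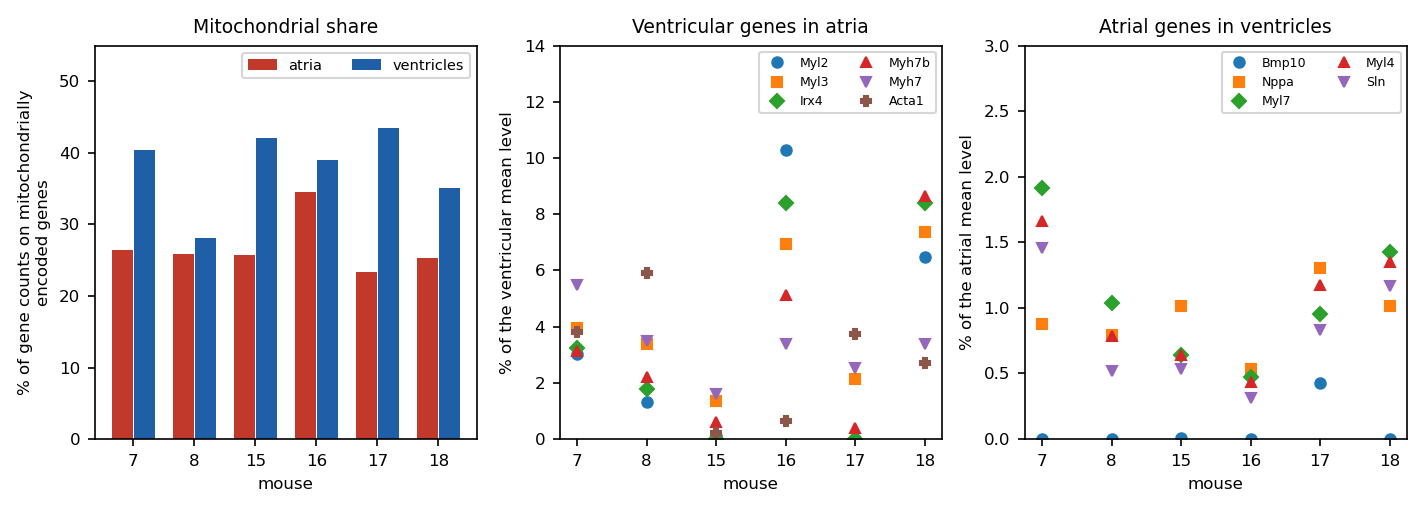
The left panel gives, for each of 6 mice, the percent of gene counts on mitochondrially encoded genes in atria (red bars) and ventricles (blue bars). The middle panel gives 6 ventricular genes in each atrial library as a percent of their ventricular mean, and the right panel 5 atrial genes in each ventricular library as a percent of their atrial mean. Ventricles exceed atria in the mitochondrial share in every mouse, and Myl2, Myl3, Irx4 and Myh7b are highest in the atria of mice 16 and 18. Myh7 is highest in the atria of mouse 7 and Acta1 in those of mouse 8.

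The labels were checked against 6 marker genes, and all 6 separated the chambers without overlap. Over all genes tested, 14.5% did so with atria above and 15.1% with ventricles above. Nppa (ENSMUSG00000041616, chromosome 4, 148000722 to 148002079 in GRCm38), the precursor of atrial natriuretic peptide, was at 8619 CPM in the lowest atrium, 10598 at the median and 12147 in the highest, against 56.7, 101 and 139 CPM in ventricles. The lowest atrial library lay far above the highest ventricular library, and the log2 difference was 6.80 (SE 0.164, adjusted p 2.85e-11). Myl7 (ENSMUSG00000020469, chromosome 11, 5896637 to 5898782), the atrial regulatory light chain of myosin, was at 2280.0, 2428 and 2922 CPM in atria and 11.8, 24.9 and 48.0 CPM in ventricles, a log2 difference of 6.68 (SE 0.258, adjusted p 8.27e-10). Myl4 (ENSMUSG00000061086, chromosome 11, 104550663 to 104595753), the atrial essential light chain, was at 3774, 4850.4 and 6223 against 21.8, 49.0 and 82.6 CPM, a log2 difference of 6.75 (SE 0.239, adjusted p 4.66e-10). Sln (ENSMUSG00000042045, chromosome 9, 53850164 to 53854560), which encodes sarcolipin, an inhibitor of the sarcoplasmic reticulum calcium pump, was at 803, 904 and 1197 against 2.91, 6.37 and 13.5 CPM, a log2 difference of 7.09 (SE 0.293, adjusted p 1.35e-09). The fitted differences of the 4 atrial markers lay between 102-fold for Myl7 and 137-fold for Sln.

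The 2 ventricular markers went the other way. Myl2 (ENSMUSG00000013936, chromosome 5, 122100951 to 122113472), the ventricular regulatory light chain, was at 6548, 7009.8 and 7970.3 CPM in ventricles and at 1.31, 155 and 735 CPM in atria. The ventricles of the 6 mice lay close together while the atria were widely spread, so the log2 difference of −6.15 had the widest error of the markers (SE 1.11, adjusted p 4.55e-04). Without mice 16 and 18 it was −8.09 (adjusted p 5.72e-05), with 1 mouse left out it lay between −6.98 without mouse 16 and −5.31 without mouse 17, with −5.38 without mouse 15 and −6.90 without mouse 18, and without the pairing it was −4.82. Myh7 (ENSMUSG00000053093, chromosome 14, 54970684 to 54994626), the slow β-myosin heavy chain, was at 112, 279.7 and 332 CPM in ventricles and 3.87, 8.13 and 13.2 CPM in atria, a log2 difference of −4.86 (SE 0.303, adjusted p 4.38e-08). In whole tissue, fewer cells of a type and less RNA per cell cannot be told apart, and this holds for every difference given here.

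**Figure D2:**
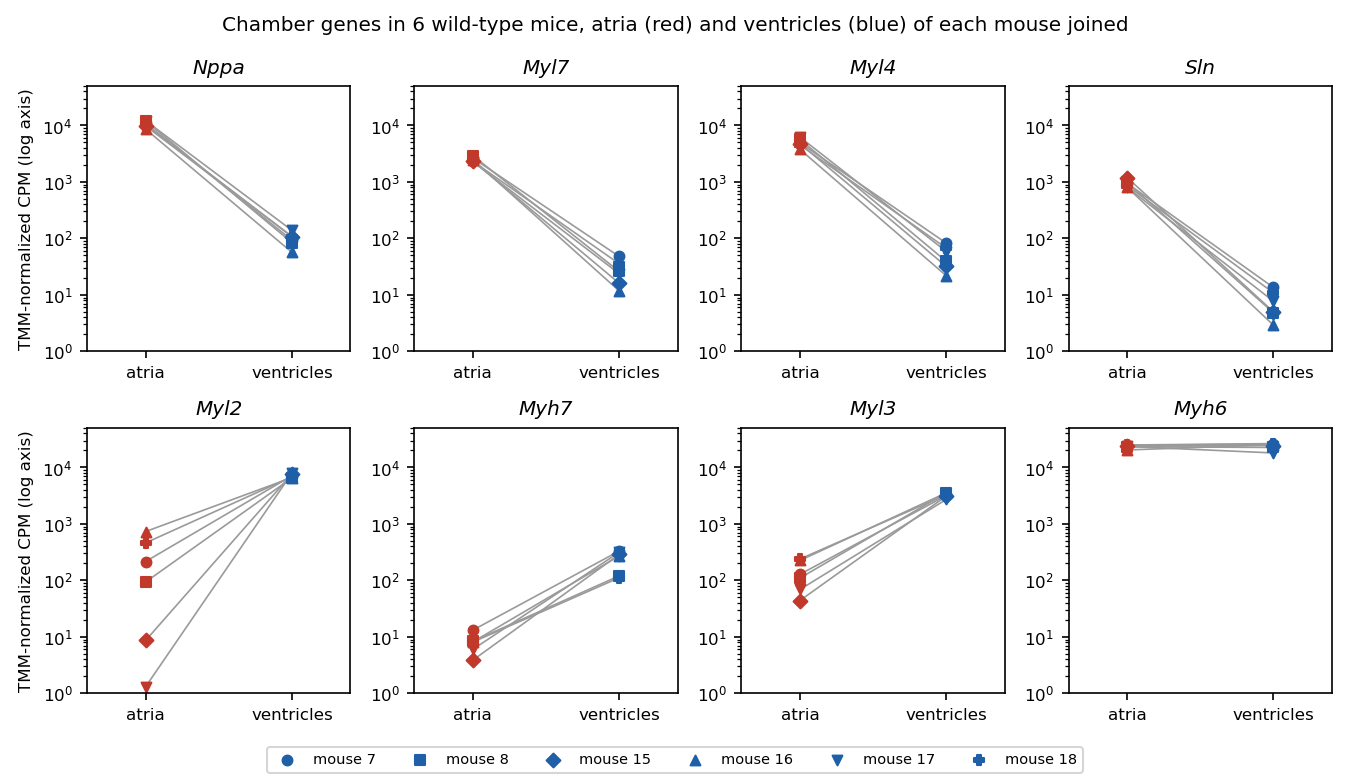
Each panel gives the level of 1 gene (TMM-normalized CPM, log axis) in the atria (red) and ventricles (blue) of 6 wild-type mice, with a line joining the chambers of a mouse and a symbol for each mouse. Nppa, Myl7, Myl4 and Sln are higher in atria and Myl2, Myh7 and Myl3 in ventricles in 6 of 6 mice, whereas the Myh6 values of the chambers overlap, and the atrial Myl2 values fan out from 1.31 to 735 CPM.

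The sequences upstream of 4 of these 6 markers are shown because they are the proximal regulatory stretches of genes that separate the chambers. Of the other markers, Sln had no RefSeq promoter sequence, and Myl2 had no RefSeq start within 500 bases of an annotated transcript start. The sequences are the 250 bases before the RefSeq start (GRCm38.p6), on the strand of the gene, with matches to AGATAA, which GATA factors bind, AAGGTCA (the core bound by ERR and NR2F receptors), AGGTGTG (T-box factors), TNAAGTG (NKX2-5) or CACGTG (E-box of HEY factors) on either strand in capitals. The T-box and NKX2-5 motifs can lie side by side, and a match is a run of letters, not a tested site.
Nppa, chr4:148000472-148000721, plus strand: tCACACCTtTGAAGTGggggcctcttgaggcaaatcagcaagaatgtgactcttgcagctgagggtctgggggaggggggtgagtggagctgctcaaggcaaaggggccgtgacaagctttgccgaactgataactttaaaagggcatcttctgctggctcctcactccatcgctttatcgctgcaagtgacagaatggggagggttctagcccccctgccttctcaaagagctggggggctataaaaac
Myl7, chr11:5898783-5899032, minus strand: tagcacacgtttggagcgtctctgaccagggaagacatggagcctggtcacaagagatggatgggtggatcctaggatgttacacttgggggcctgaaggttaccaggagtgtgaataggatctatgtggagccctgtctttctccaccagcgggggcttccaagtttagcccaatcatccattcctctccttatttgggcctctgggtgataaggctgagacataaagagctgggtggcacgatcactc
Myl4, chr11:104550413-104550662, plus strand: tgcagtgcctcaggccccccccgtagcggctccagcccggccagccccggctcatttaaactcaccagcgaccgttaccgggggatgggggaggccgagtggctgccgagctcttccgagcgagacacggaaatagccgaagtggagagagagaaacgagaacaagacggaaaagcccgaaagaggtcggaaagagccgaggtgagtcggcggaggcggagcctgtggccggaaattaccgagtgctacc
Myh7, chr14:54994627-54994876, minus strand: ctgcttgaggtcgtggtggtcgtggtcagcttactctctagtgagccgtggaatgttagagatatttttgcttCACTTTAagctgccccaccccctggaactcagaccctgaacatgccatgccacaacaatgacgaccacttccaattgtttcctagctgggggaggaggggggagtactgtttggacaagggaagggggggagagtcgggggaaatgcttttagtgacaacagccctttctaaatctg
The Nppa window held a T-box and an NKX2-5 match next to each other at its far end, the Myh7 window 1 NKX2-5 match, and the windows of Myl7 and Myl4 none of the 5 motifs. Over the 300-base windows from 250 bases before to 50 after the start, 11092 of the 15147 genes tested had a RefSeq sequence that starts as near. AGATAA occurred in 9.3% of the windows of genes at least 2-fold higher in atria, 8.5% of those at least 2-fold higher in ventricles and 6.6% of all. AAGGTCA occurred in 2.8%, 4.8% and 3.2%, AGGTGTG in 5.5%, 5.1% and 4.2%, TNAAGTG in 9.3%, 8.0% and 8.5%, and CACGTG in 7.7%, 9.2% and 10%, in the same order. These shares are descriptions without a test.

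Across the genome, most genes tested were called. Of 15147 genes, 3947 were higher in atria (26.1%) and 4035 higher in ventricles (26.6%), while 7165 were not called. At least 2-fold differences were more frequent in atria, with 1627 called genes (10.7%) against 980 in ventricles (6.47%), and the excess was wider at 16-fold, with 137 against 51. The balance of all calls depended on the scale, since atrial calls made up 49.4% of calls with TMM, 70.7% with nuclear totals and 85.8% with total counts. Without mice 16 and 18 the counts were 3682 and 3793. The chambers did not overlap at 14.5% of genes with atria above and at 15.1% with ventricles above. Each gene list below is to be read against these shares.

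**Figure D3:**
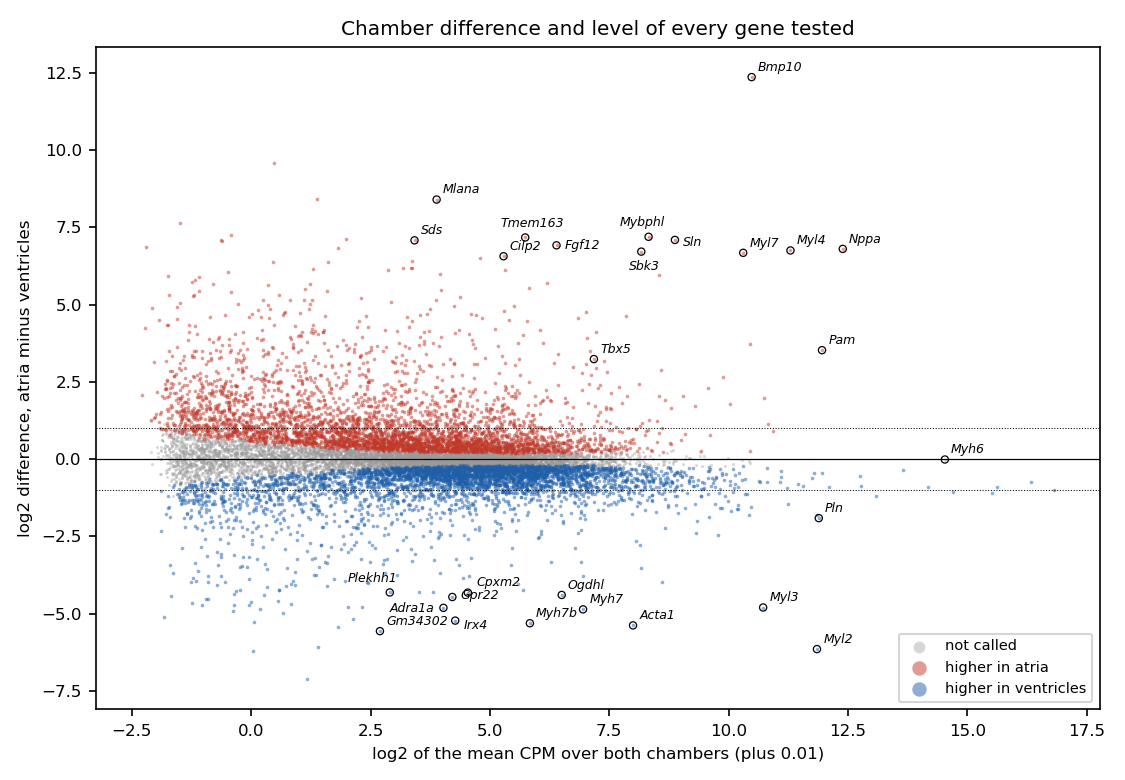
Every gene tested is a point, with its mean level over both chambers (log2 CPM) on the x axis and its log2 difference (atria minus ventricles) on the y axis. Red and blue points were called higher in atria or ventricles, grey points were not called, and dotted lines mark 2-fold. Bmp10 lies far above all other genes at 12.36, and Nppa, Myl4, Myl7, Myl2 and Myl3 combine a high level with a difference beyond 16-fold, whereas Myh6, among the most abundant genes, lies at −0.014.

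The 12 protein-coding genes of largest difference in atria, by a rule that asked for a call, the same direction in 6 of 6 mice and at least 10 CPM in the higher chamber, were Bmp10, Mlana, Mybphl, Tmem163, Sln, Sds, Fgf12, Nppa, Myl4, Sbk3, Myl7 and Cilp2. Bmp10 (ENSMUSG00000030046, chromosome 6, 87428994 to 87437677), a bone morphogenetic protein secreted by the right atrium in the adult, was at 2081, 2729.9 and 4054 CPM in atria. In ventricles it was 0 in the lowest library and 0.0718 CPM at the median, and 1 library, of mouse 17, held 12.2 CPM. Its log2 difference was 12.36 (SE 0.880, adjusted p 1.44e-07) with that mouse and 15.14 (adjusted p 5.03e-13) without it, 11.52 without mice 16 and 18 and 10.48 without the pairing, and these values rest on very few ventricular reads. Mlana, known as a melanocyte antigen, was at 21.5, 28.6 and 39.4 CPM in atria and at most 0.177 CPM in ventricles, a log2 difference of 8.40. The other melanocyte genes did not move with it, as Dct was higher in ventricles (3.12, 3.82 and 12.8 CPM against 0.0963, 0.464 and 2.24 CPM in atria, log2 difference −2.86) and Tyr, Tyrp1 and Pmel did not reach the count filter.

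The other atrial leaders were low in ventricles. Mybphl, a myosin binding protein of the thick filament, went from 2.09, 3.90 and 8.38 CPM in ventricles to 538, 622 and 736 CPM in atria, without overlap (log2 difference 7.20). Fgf12, an intracellular fibroblast growth factor homologue that binds sodium channels, was at 126, 165 and 211 CPM in atria and 0.206, 1.37 and 3.14 CPM in ventricles (6.92). Tmem163, a zinc transporter of vesicles, Sds, the liver enzyme serine dehydratase, Sbk3, a kinase of the SH3-binding domain kinase family, and Cilp2, a matrix protein, had log2 differences of 7.17, 7.08, 6.72 and 6.57. None of these 4 overlapped between chambers, but they were picked for large differences with all mice in the same direction. Sbk3 had the highest atrial median among them, 574 CPM against 5.02 CPM in ventricles.

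The 12 leading ventricular genes were Myl2, Gm34302, Acta1, Myh7b, Irx4, Myh7, Adra1a, Myl3, Gpr22, Ogdhl, Cpxm2 and Plekhh1. Acta1, skeletal α-actin, was at 239.6, 369 and 1257 CPM in ventricles, the highest in mouse 17, and at 1.12, 16.1 and 29.3 CPM in atria (log2 difference −5.38, SE 0.586). Ogdhl, a paralogue of the oxoglutarate dehydrogenase subunit of the citric acid cycle, was at 107, 173 and 220.3 CPM in ventricles and 3.68, 7.13 and 18.7 CPM in atria (−4.40). Gpr22, an orphan G protein-coupled receptor, had 16.4, 40.6 and 43.8 CPM against 0.403, 1.38 and 6.55 CPM (−4.46, and −4.91 without mice 16 and 18), its highest atrial value in mouse 16. Cpxm2, a carboxypeptidase-like protein, and Plekhh1 had log2 differences of −4.32 and −4.32, and the ventricular values of Plekhh1 ranged from 2.51 to 29.3 CPM. Gm34302 (−5.57) was low everywhere and highest in 1 ventricular library, of mouse 8, at 38.3 CPM against 4.49 to 13.1 CPM in the other 5. Leaving out mice 16 and 18 moved the ventricular leaders Gm34302 to −6.82, Irx4 to −6.45, Myh7b to −6.07 and Adra1a to −5.60, while the atrial leaders Nppa, Sln and Mybphl were then at 6.75, 7.07 and 7.21.

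In the thick filament, light chains and myosin binding proteins split by chamber while the main motor did not. Of 21 genes tested 9 were higher in atria and 9 in ventricles, with a median of −0.014 beside −0.0011 over all genes. The list median was 0.15 without mice 16 and 18. Myh6, the fast α-myosin heavy chain of the adult mouse heart, was at 20419, 23803 and 24985 CPM in atria and 18082, 24897 and 26469 CPM in ventricles, and the groups overlapped almost wholly (log2 difference −0.014, SE 0.115, adjusted p 0.932). It was not called with TMM, and with total counts it was called in atria at 0.43 (adjusted p 0.00961), close to the 0.45 by which that scale moves all genes. Since Myh6 was so abundant, Myh7 stayed a small part of the heavy chain in both chambers, 0.328% to 1.34% of Myh6 plus Myh7 in ventricles and 0.0126% to 0.0419% in atria on the scale of CPM per kilobase of exon. The light chains in contrast exchanged almost completely, as Myl2 made up 97.8% to 99.4% of Myl2 plus Myl7 per kilobase in ventricles and 0.0174%, a median of 1.69% and 8.18% in atria, the highest atrial share being 2.41% without mice 16 and 18.

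Essential light chains followed the same pattern. Myl3, the ventricular form, was at 2724, 3247 and 3569 CPM in ventricles and 44.1, 119 and 239 CPM in atria (log2 difference −4.80, SE 0.284, and −5.27 without mice 16 and 18), so that it was 98.9% to 99.7% of Myl3 plus Myl4 per kilobase in ventricles and 2.06% to 11.9% in atria, or at most 5.57% without mice 16 and 18. Myl1, the fast skeletal essential light chain, was higher in atria at 112, 308 and 501 against 16.1, 33.5 and 42.0 CPM (3.19), as was Myl9, a regulatory light chain of smooth muscle and non-muscle cells (2.72). Among the ventricular genes, Myh7b, a slow myosin relative, was at 98.4, 104 and 145 CPM in ventricles and 0.445, 2.96 and 9.55 CPM in atria (−5.31). The abundant proteins of the filament differed less: Mybpc3, cardiac myosin binding protein C, by −1.47, Myom1, the myomesin of the M-band, by −0.74, and Ttn, titin, by −0.54, a call that was lost with total counts (−0.087).

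Thin filament and Z-disc genes were called higher in ventricles 19 times and higher in atria 9 times out of 31 tested, with a median of −0.34 that turned to 0.11 with total counts. The leader in atria was Tpm2, β-tropomyosin, at 116, 151 and 220.0 CPM against 9.69, 16.1 and 18.2 CPM in ventricles (3.39). Its paralogue Tpm1, the main cardiac tropomyosin, was higher in ventricles, at 5288, 5864 and 6043 against 2326, 3202 and 3498 CPM (−0.92). Actin showed the same kind of pair, as skeletal Acta1 was 2.59% to 13.7% of Acta1 plus the cardiac gene Actc1 per kilobase in ventricles and 0.0320% to 0.494% in atria, while Actc1 itself differed by −0.87. Tnnc1, cardiac troponin C, Lmod3, leiomodin 3, Nrap, a protein of the forming myofibril, and Xirp2, an actin-binding protein of the intercalated disc, were higher in ventricles by −1.12, −1.64, −1.14 and −1.20. The cardiac troponins Tnnt2 and Tnni3 were higher in ventricles by −0.44 and −0.45, calls that were lost with total counts, where they sat at 0.0052 and 0.0024. Tmod1, tropomodulin, and Neb, nebulin, were higher in atria (0.63 and 1.47).

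Natriuretic peptide genes, their processing enzymes and receptors were mostly atrial, with 7 of 11 tested called higher in atria, 2 higher in ventricles and a median of 0.93. Next to Nppa, the largest difference was that of Pam, the amidating monooxygenase of secretory granules, at 6984, 7276 and 7705 CPM in atria and 504, 618 and 762 CPM in ventricles (3.52, SE 0.118). Nppb, the precursor of B-type natriuretic peptide, was higher in atria in 6 of 6 mice but its groups overlapped, at 134, 209.5 and 495 CPM against 64.7, 121 and 255 CPM (0.93). Nppa differed far more, and Nppb was 45.5% to 67.0% of both peptides per kilobase in ventricles and 1.49% to 4.31% in atria. Corin, the protease that activates the Nppa product, was higher in atria (459.6, 517 and 568 against 209.6, 272 and 287 CPM, 0.99), and so were the receptors Npr1, a guanylyl cyclase (0.53), and Npr3, which clears the peptides (3.09). Mme, neprilysin, which degrades them, was higher in ventricles (−1.62). Furin, a protease of the secretory route, was not called (0.12, adjusted p 0.462) with TMM and was called in atria at 0.57 with total counts and 0.33 with nuclear totals.

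Transcription factors of chamber identity divided evenly with TMM, 11 higher in atria and 11 higher in ventricles of 32 tested (median −0.12). With nuclear totals the calls were 11 and 10 (median 0.091), and with total counts 19 and 7 (median 0.33). On the atrial side, Tbx5, a T-box factor of the atria and conduction system, was at 240.1, 263 and 282 CPM against 22.1, 26.4 and 36.6 CPM (3.24, SE 0.132). Gata5 (4.19), Nr2f2 and Nr2f1, the orphan receptors COUP-TFII and COUP-TFI (2.21 and 1.87), and Shox2, a factor of the sinus node and venous pole (2.48), were also higher in atria without overlap. Of these Gata5 and Shox2 were low, with atrial medians of 6.10 and 2.36 CPM. Tbx20, needed in both chambers, differed less (0.93).

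On the ventricular side stood the Iroquois genes. Irx4 was at 30.2, 36.1 and 47.6 CPM in ventricles and at 0, 0.932 and 3.13 CPM in atria (−5.23, SE 0.550), its 2 highest atrial values in mice 16 and 18. Irx1 and Irx2, which neighbour Irx4 on chromosome 13, were at 5.203 and 5.45 CPM at the ventricular median and at most 0.0708 and 0.106 CPM in any atrium (−7.12 and −6.09, fitted values that rest on a few atrial reads). Unlike Irx4, both stayed near 0 in the atria of mice 16 and 18. Irx3 and Irx5, of the cluster on chromosome 8, differed by −2.89 and −2.20. Hey2, a repressor of atrial genes in the ventricle, was higher in ventricles by −1.15, with overlapping groups (4.30 to 6.83 against 1.48 to 4.40 CPM). The pan-cardiac factors Nkx2-5 (0.12, adjusted p 0.532) and Gata4 (−0.24, adjusted p 0.0643) were not called with TMM and pairing, Gata4 was called in ventricles without the pairing (adjusted p 0.0328), and with total counts Nkx2-5 was called at 0.56 while Gata4 changed sign to 0.21, not called.

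Genes of sinoatrial and conduction cells were looked at separately, since both dissections may hold such cells. Their summed level was 328, 372 and 395 CPM in atria and 139.8, 172 and 192 CPM in ventricles, higher in atria in 6 of 6 mice (exact p 0.0312), and 8 of 12 tested were called in atria and 3 in ventricles. The largest part of the atrial sum came from Gnao1, a G protein subunit that working atrial muscle also uses (215 CPM). Vsnl1, a calcium sensor of the sinus node, was higher in atria at a low level (3.55, and 4.31 without mouse 15). Hcn4, the main pacemaker channel of the node, did not follow the sum. It was at 3.31, 4.83 and 16.2 CPM in atria and 8.12, 11.4 and 16.5 CPM in ventricles, higher in ventricles in 5 of 6 mice with overlapping groups (−0.81, SE 0.218, adjusted p 0.00706), and the call was lost without the pairing by mouse (adjusted p 0.237) and with total counts (adjusted p 0.134). The atria of mice 16 and 7 held the high Hcn4 values. Tbx3, a repressor that keeps nodal cells from turning into working muscle, was higher in ventricles by −0.78 (adjusted p 1.64e-04), also lost with total counts.

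Calcium handling showed a change of the pump's inhibitor more than of the pump. Of 30 sarcoplasmic reticulum genes tested, 9 were higher in atria and 13 in ventricles (median −0.15, 0.30 with total counts). Pln, phospholamban, was at 5343, 5786 and 7325 CPM in ventricles and 1213, 1535 and 2333 CPM in atria (−1.91, SE 0.160), opposite to Sln, so that Sln was 41.9% to 61.5% of both inhibitors per kilobase in atria and 0.114% to 0.505% in ventricles. Atp2a2, the cardiac calcium pump SERCA2, was at 13125, 14291 and 16716 CPM in ventricles and 10617, 11479.6 and 11932 CPM in atria. Its difference of −0.34 was called (adjusted p 0.0158) but was lost without mouse 7 or mouse 8 and turned to 0.11 with total counts, not called. The skeletal pump Atp2a1 and the ryanodine receptor Ryr3 were higher in atria by 4.28 and 4.20, at low levels beside Atp2a2 and the cardiac receptor Ryr2, whose own difference was −0.39 (0.062 with total counts). Hrc, a calcium-binding protein of the store, and Jph2, junctophilin, which holds the store to the surface membrane, were higher in ventricles by −0.85 and −0.91. Slc8a1, the sodium-calcium exchanger, was not called with TMM (−0.14), nor with nuclear totals (0.064), but was called in atria with total counts (0.31).

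Potassium channel genes were called 8 times in atria and 15 times in ventricles out of 35 tested (median −0.10). With total counts 16 were called in atria and 9 in ventricles (median 0.35), and with nuclear totals 12 and 10 (median 0.11). The list median was −0.22 without mice 16 and 18. The ATP-sensitive channel showed an exchange of its regulatory subunit, since Abcc8, the sulfonylurea receptor SUR1, was at 117, 152 and 174 CPM in atria and 25.7, 39.9 and 49.2 CPM in ventricles (1.97). Abcc9, SUR2, was at 437, 489 and 551 CPM in ventricles and 45.9, 68.3 and 121 CPM in atria (−2.79). Per kilobase, Abcc8 was 50.04%, 70.5% and 77.8% of the pair in atria and 5.73% to 8.94% in ventricles. Their pore subunits differed unequally, Kcnj8 by −1.47 and Kcnj11, which was at 127 and 164 CPM at the medians, by −0.31, a call that was lost without any 1 of mice 16, 18, 7 and 8 and turned to 0.14 with total counts.

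Among voltage-gated potassium channels, Kcnip2, the auxiliary subunit of the fast transient outward current, was at 84.6, 112 and 133 CPM in ventricles and 14.05, 18.7 and 32.1 CPM in atria (−2.53). Its pore partner Kcnd2 differed by −0.36 with overlapping groups, a call lost without the pairing by mouse, and sat at 0.086 with total counts. Kcna5 (−1.58), the silent subunit Kcnv2 (−1.13) and Kcne1 (−3.34, at most 7.03 CPM) were higher in ventricles, and Kcnh2, the ERG channel of repolarization, and Kcna4 were higher in atria (1.10 and 1.69). Kcnj2, a channel of the resting potential, was higher in ventricles by −0.41 with overlapping groups, 0.035 with total counts.

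Sodium, calcium and pacemaker channels were split 11 to 10 of 26 tested (median −0.13). The list median was −0.034 without mice 16 and 18 and 0.32 with total counts. Scn4b, a β subunit of the sodium channel, was higher in ventricles (−2.44), whereas Scn10a, a sodium channel of sensory neurons and heart, was higher in atria at a low level (1.95). L-type calcium channels were exchanged in part, with Cacna1c at 315, 389 and 474 CPM in ventricles and 129.7, 153 and 180.4 CPM in atria (−1.38), and Cacna1d at 17.4, 17.9 and 23.8 CPM in atria and 1.68, 2.13 and 2.58 CPM in ventricles (3.16). The T-type channel Cacna1h (3.91) and the auxiliary subunit Cacna2d2 (4.51) were higher in atria, and the subunit Cacna2d1 was higher in ventricles (−1.34). Hcn2, a further pacemaker channel, was higher in ventricles (−1.50).

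Connexins, the proteins of gap junctions, held 1 large difference among 6 tested. Gja5, connexin 40, which joins atrial and conduction cells, was at 102, 110.0 and 167 CPM in atria and 5.62, 6.59 and 8.19 CPM in ventricles (4.17, SE 0.145). Gja1, connexin 43, of all working muscle, was higher in ventricles by −0.37 with overlapping groups, and stood at 0.076 with total counts. Gja5 was thus 29.1% to 42.3% of both per kilobase in atria and 1.97% to 3.18% in ventricles. Gja3 and Gjc1 differed by 0.57 and −0.42, the latter also crossing 0 with total counts (0.030).

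The muscarinic pathway, through which the vagus nerve slows the heart and in which the product of Gnb5 acts with R7-type RGS proteins, had 12 of 26 genes tested higher in atria, 11 of them at least 2-fold, 6 higher in ventricles and 8 not called, with a median of 0.37. The M2 receptor gene Chrm2 was at 376, 443 and 585 CPM in atria and 169.5, 188 and 213 CPM in ventricles (1.27, SE 0.103). Its effector is the GIRK potassium channel, whose subunits were Kcnj3 at 441, 651 and 864 against 83.3, 86.9 and 101 CPM (2.89) and Kcnj5 at 256, 280.2 and 285 against 70.4, 91.3 and 102 CPM (1.67). The subunits were unequal in their difference, as Kcnj3 was 58.4% to 73.4% of both per kilobase in atria and 43.7% to 52.7% in ventricles, higher in atria in 6 of 6 mice (exact p 0.0312).

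Between receptor and channel, Gnao1, an inhibitory α subunit, was higher in atria (193, 215 and 226 against 23.7, 31.3 and 41.0 CPM, 2.77), while Gnai2 was higher in ventricles by −0.32, a call lost without mice 16 and 18 (−0.24) and turned to 0.13 with total counts. Of the R7 RGS genes, Rgs6, the form that acts in the heart, was at 67.0, 74.4 and 84.8 CPM in atria and 13.6, 17.2 and 24.1 CPM in ventricles (2.05), and Rgs7 was at 12.4, 14.8 and 16.5 against 0.970, 1.53 and 2.06 CPM (3.30). Their partner Gnb5 (ENSMUSG00000032192, chromosome 9, 75306288 to 75345876) was nearly level, at 21.3, 24.6 and 26.9 CPM in atria and 19.8, 21.3 and 24.7 CPM in ventricles. The groups overlapped and the difference of 0.16 (SE 0.0844) was not called (adjusted p 0.134), but it was called in atria with nuclear totals (0.37) and total counts (0.61). These are RNA levels. By immunoblot the study found more Gnb5 and Rgs7 protein in wild-type atria than in ventricles. Rgs7bp, which anchors R7 RGS proteins to the membrane, went against them with −1.26, as did Rgs4 (−1.31) and the β subunit Gnb3, at 3.93, 6.63 and 11.9 CPM in ventricles and 0.844, 1.30 and 1.83 CPM in atria (−2.43). Adora1, the adenosine receptor that opens the same channel, was not called with TMM (0.10), but was called in atria with nuclear totals (0.31).

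In the adrenergic and cyclic nucleotide list, 10 genes were higher in atria and 12 in ventricles of 31 tested (median −0.11, 0.34 with total counts). The list median was −0.045 without mice 16 and 18. Adrb1, the β1 receptor, was not called with −0.23 (adjusted p 0.176), and its difference turned positive with total counts. The α1A receptor gene Adra1a was at 21.5, 33.9 and 37.4 CPM in ventricles and 0.127, 0.885 and 3.10 CPM in atria (−4.82, SE 0.327). Adenylyl cyclases differed by isoform. Adcy1, a calcium-stimulated form, was at 74.5, 86.1 and 101 CPM in atria and 2.37, 2.72 and 3.84 CPM in ventricles (4.95), and Adcy9 and Adcy8 were higher in ventricles (−1.98 and −3.18, Adcy8 at most 1.86 CPM). The main cardiac forms Adcy5 and Adcy6 had small atrial differences with overlapping groups (0.45 and 0.32), and that of Adcy6 was lost without any 1 of mice 15, 17 and 18. Pde9a, a phosphodiesterase of cyclic GMP, was higher in atria (1.90).

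Genes of energy metabolism were ventricular with few exceptions. Of 43 genes of fatty acid uptake and oxidation tested, 38 were higher in ventricles, 27 of them at least 2-fold, and 2 in atria, with a median of −1.24, −1.03 with nuclear totals and −0.79 with total counts. Uptake genes were among them, Cd36, the fatty acid transporter, at 1485, 1696 and 2084 against 453, 584 and 726 CPM (−1.61), and Lpl, lipoprotein lipase, at 5167, 5706 and 6451 against 1239, 1583 and 2241 CPM (−1.81). Fabp3, the cytosolic carrier (−1.80), Plin5, of the lipid droplet (−2.89), Cpt2, of mitochondrial import (−1.64), and Hadha and Acadm, of β-oxidation (−1.69 and −1.58), were higher in ventricles without overlap. The regulators Ppara and Ppargc1a, a receptor and a coactivator that drive these genes, differed by −1.01 and −0.50, the latter with overlapping groups and lost with total counts (−0.053). Ucp3, a mitochondrial carrier linked to fatty acid use, was higher in ventricles (−2.06) with overlapping groups, while its relative Ucp2 was higher in atria at 200.4, 272 and 303 against 21.2, 35.4 and 48.3 CPM (2.94).

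The same direction held for the mitochondrial machinery. All 36 nuclear genes of respiratory complex I were called higher in ventricles with TMM, with log2 differences from −1.35 to −0.32. Ndufs6 and Ndufa9 were at −1.35 and −1.04. The list median was −0.82, −0.62 with nuclear totals and −0.38 with total counts. Calls in ventricles fell to 33 with nuclear totals, 23 with total counts and 35 without mice 16 and 18. All 22 genes of the citric acid cycle tested were also called higher in ventricles with TMM, from −1.60 to −0.42 (median −0.90). With total counts 19 were called there (median −0.45). Idh2, a mitochondrial isocitrate dehydrogenase, was at 1283, 1787 and 2231 against 498, 573 and 681 CPM (−1.60), and Cs, citrate synthase, differed by −0.93. Over all genes 26.6% were called in ventricles. Of 13 mitochondrially encoded protein genes, 8 passed the filter and 7 were higher in ventricles (median −0.91), and mt-Co1, of complex IV, was at 115335, 160634 and 184701 CPM in ventricles and 64407, 71387 and 108202 CPM in atria (−1.02). The atrial library of mouse 16 had the highest mt-Co1 of the atria. mt-Co2, mt-Co3, mt-Atp6, mt-Atp8 and mt-Nd4l had at most 49 counts in any library although every heart cell uses them. Counting kept uniquely aligned reads, and 35.8% to 42.9% of alignments in atria and 42.1% to 48.0% in ventricles were not unique. Which genes those alignments belonged to was not tested.

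Promoter sequence was looked at for these metabolic lists because the ERR core AAGGTCA is known from oxidative genes. It occurred in 7 of 84 windows of the fatty acid, complex I and citric acid cycle genes with a RefSeq sequence (8.3%) against 3.2% of all genes tested, a description over few windows. The 250 bases before the start of Acadm, medium-chain acyl-CoA dehydrogenase, hold 1 match, on the opposite strand, near the far end.
Acadm, chr3:153944644-153944893, minus strand: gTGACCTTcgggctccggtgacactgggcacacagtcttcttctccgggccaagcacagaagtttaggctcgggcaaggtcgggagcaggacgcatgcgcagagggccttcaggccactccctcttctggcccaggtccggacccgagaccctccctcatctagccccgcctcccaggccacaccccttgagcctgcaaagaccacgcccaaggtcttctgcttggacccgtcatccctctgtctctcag

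Glucose uptake and glycolysis leaned the same way with more exceptions, 20 of 31 tested higher in ventricles and 3 in atria (median −0.65, −0.20 with total counts). Slc2a4, the insulin-regulated transporter, was higher in ventricles (−0.95) and Slc2a1, the basal transporter, in atria (0.56). Hk2, a hexokinase of muscle, was higher in ventricles (−1.17). Ldhb, the heart-type lactate dehydrogenase, was at 1249, 1516 and 1653 against 511, 567 and 644 CPM (−1.35) and Ldha differed by −0.75, leaving Ldhb at 83.3% to 90.1% of both per kilobase in ventricles and 80.6% to 84.5% in atria. In the creatine and energy transfer list, 9 of 13 were higher in ventricles. The muscle creatine kinase Ckm (−1.48), its mitochondrial partner Ckmt2 (−1.55) and Mb, myoglobin (−1.21), were ventricular, and the ubiquitous mitochondrial form Ckmt1 was higher in atria (3.84) at no more than 9.62 CPM.

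**Figure D4:**
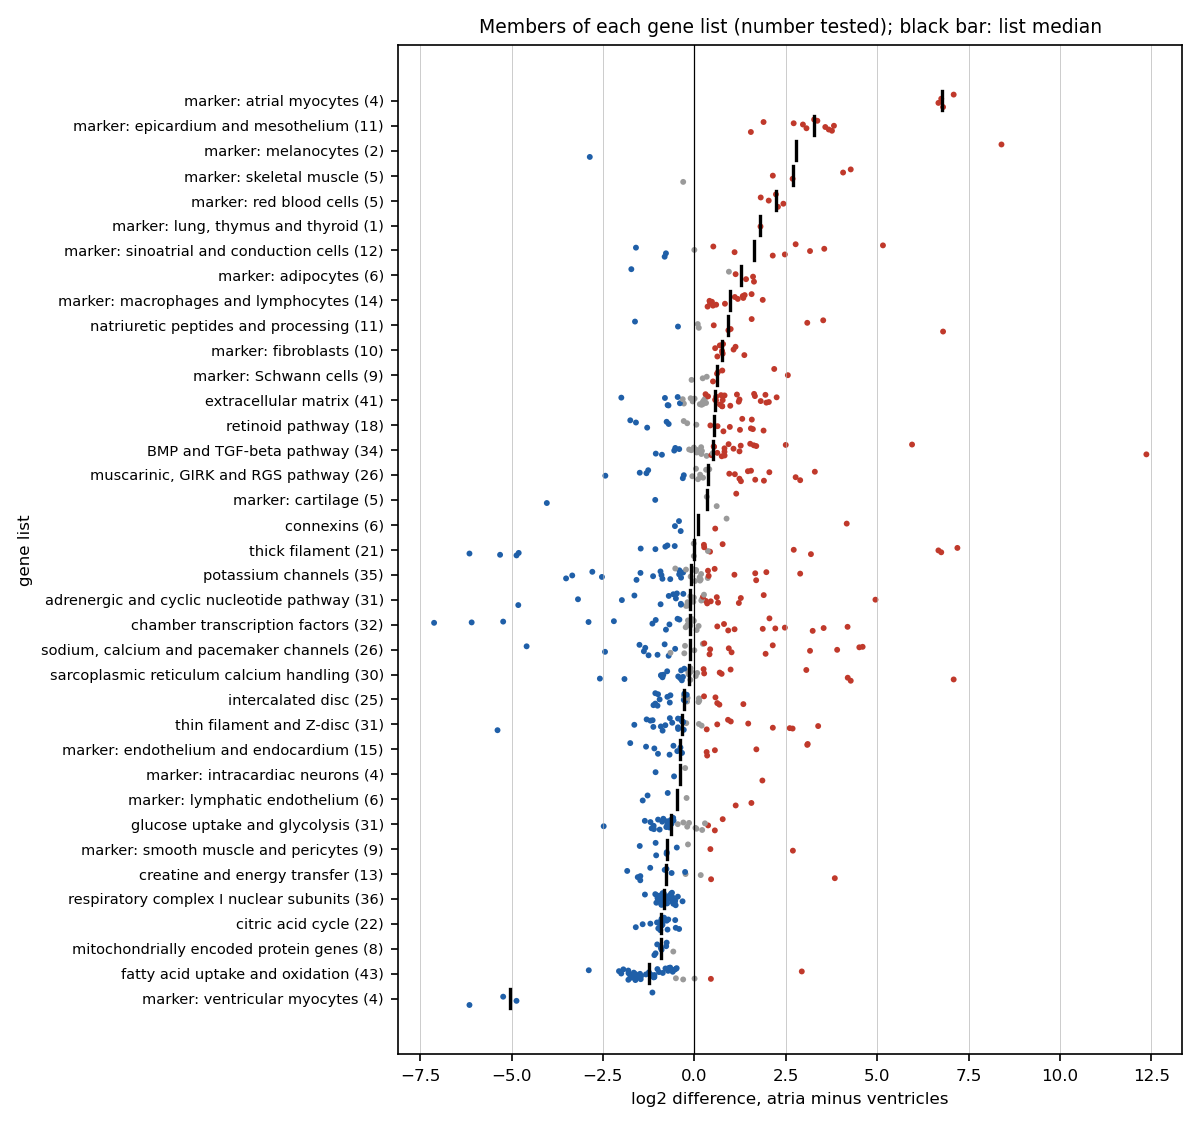
Each row is 1 of 37 gene lists with the number of members tested in brackets, and each point is the log2 difference (atria minus ventricles) of a member, red or blue where it was called higher in atria or ventricles and grey where it was not. Black bars are list medians, from −5.05 for ventricular myocyte markers to 6.78 for atrial ones, with the 4 mitochondrial and fatty acid lists between −1.24 and −0.82.

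Cell junctions and matrix differed in opposite directions. Of 25 intercalated disc genes tested 14 were higher in ventricles and 5 in atria (median −0.27, 0.18 with total counts). Desmosomal cadherins were atrial, Dsc2 at 122, 146 and 185 against 53.6, 59.0 and 66.5 CPM (1.34) and Dsg2 with 0.69, whereas Cdh2, N-cadherin (−1.01), and the plaque proteins Dsp, desmoplakin (−1.12), and Jup, plakoglobin (−0.67), were ventricular, Jup with overlapping groups and not with total counts (−0.22). Extracellular matrix genes were higher in atria 23 times and in ventricles 6 times of 41 (median 0.57). Fn1, fibronectin, was at 245, 339 and 562 against 72.3, 84.1 and 109.6 CPM (2.04), Col14a1, a fibril-associated collagen, differed by 1.97, Mgp, matrix Gla protein, by 1.63 and Comp, a cartilage and tendon matrix protein, by 2.25. Col4a1, of the basement membrane, was higher in ventricles in 5 of 6 mice (−0.71) but not with total counts (−0.26), and Postn, periostin, was not called (0.29, adjusted p 0.0928) with TMM and was called in atria without mouse 15 or mouse 17 and with either other scale.

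The retinoid list was called 10 times in atria and 5 times in ventricles of 18 tested (median 0.54). Aldh1a2, which makes retinoic acid (1.89), was atrial, and the receptor Rxrg was ventricular at 43.5, 52.8 and 61.3 against 15.2, 17.2 and 19.8 CPM (−1.60). Aldh1a2 also stands in the epicardial marker list. In the BMP and TGF-β list 18 of 34 were higher in atria and 5 in ventricles (median 0.52). Without mice 16 and 18 these calls were 17 and 2. After Bmp10, the largest difference was that of Dkk3, a secreted glycoprotein of the Dickkopf family, at 683, 702 and 892 against 8.29, 11.98 and 18.4 CPM (5.95). The downstream Smad9 and Smad6, an effector and an inhibitor of BMP signalling, were higher in atria (1.63 and 1.69). Of the receptors that BMP10 uses, Acvrl1 was higher in ventricles by −0.41 (0.035 with total counts) and Bmpr2 was not called with TMM (−0.14), was called in ventricles without mouse 16 (−0.28) and was called in atria with total counts (0.31).

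Markers of the other cell types in the 2 tissues moved with the chambers, and their part in the differences above was not tested. Epicardial and mesothelial markers summed to 272, 384 and 541 CPM in atria and 30.1, 42.8 and 59.6 CPM in ventricles, and 11 of 11 were called in atria (median 3.28), among them Upk3b (3.76), Msln (3.07) and Wt1 (1.55). Fibroblast markers summed to 3467, 4181 and 4779 against 1907, 2196 and 2292 CPM, with 10 of 10 called in atria (median 0.77), including Tcf21 (1.37), Pdgfra (0.63) and Dcn (0.78). Leukocyte markers were higher in atria in 14 of 14 (sum 271 to 337 against 171 to 236 CPM), with Cd163, of resident macrophages, at 1.87. Schwann cell markers summed to 117 to 144 CPM in atria and 60.4 to 70.8 CPM in ventricles, 6 of 9 called in atria. All these sums were higher in atria in 6 of 6 mice (exact p 0.0312, the smallest possible).

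The 15 markers of endothelium were all called, in both directions. They summed to 1523, 1843 and 1959 CPM in atria and 1742, 1875 and 1938 CPM in ventricles (exact p 0.5), with 6 called in atria and 9 in ventricles. Vwf, of larger vessels and endocardium (1.70), Plvap, of fenestrated endothelium and endocardium (3.10), and Npr3, also an endocardial gene, were atrial. Kdr, the VEGF receptor (−0.99), and Fabp4, a fatty acid carrier of capillaries (−1.32), were ventricular, and the pan-endothelial Pecam1 differed by 0.35. Smooth muscle and pericyte markers summed to 1051 to 1149 CPM in ventricles and 601 to 736 CPM in atria, 6 of 9 called in ventricles, such as Myh11 (−1.04), and 2 in atria, Cnn1, calponin (2.70), and Smtn, smoothelin (0.44).

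Smaller sources were present too. Red cell genes were higher in atria in 5 of 5, with a sum of 1765, 2701 and 3327 against 251, 563 and 1264 CPM, and Hba-a1, an α-globin gene with a near-identical neighbour that can share its reads, differed by 2.29. Skeletal muscle markers summed to 16.9 to 40.6 CPM in atria and 2.63 to 4.45 CPM in ventricles. That sum was carried mostly by Atp2a1, the pump named above, followed by troponin Tnni2 and Actn3 (4.07), while the defining heavy chains Myh1, Myh2 and Myh4 did not reach the filter, at 0.0591, 0.0944 and 0.0636 CPM in the highest atrium. Of 17 markers of intracardiac neurons 4 were tested, with 1 called in atria and 2 in ventricles. The sum of all 17 leaned the other way, at 19.6 to 30.1 CPM in atria and 15.1 to 19.99 CPM in ventricles. It was higher in atria in 6 of 6 mice (exact p 0.0312). Dbh, of noradrenaline synthesis, was higher in atria (1.86) and 1 of the 4 was not called. Stmn2 and Uchl1, of neuronal microtubules and protein turnover, were higher in ventricles (−1.06 and −0.55). The Uchl1 call was lost without mice 16 and 18 (−0.34), with nuclear totals (−0.35) and with total counts (−0.11). The cholinergic markers Chat and Slc5a7 did not reach the filter. Among markers of lung, thymus and thyroid, of which 1 of 13 was tested, Tg, thyroglobulin, was higher in atria at 5.23 to 9.46 against 1.31 to 3.75 CPM. Adipocyte markers (4 of 6 called in atria, 0 without mice 16 and 18), lymphatic markers (2 in atria and 3 in ventricles of 6) and cartilage markers (1 and 2 of 5) held calls in both directions or few calls. The lymphatic sum was 89.5 to 125 CPM in atria and 81.4 to 105 CPM in ventricles, higher in atria in 6 of 6 mice (exact p 0.0312).

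The comparison was repeated in 6 Gnb5+/− and 6 Gnb5−/− mice, each genotype in a fit of its own. In Gnb5+/− mice 4381 genes were higher in atria (28.5%) and 3955 in ventricles (25.7%), and in Gnb5−/− mice 4932 (31.9%) and 4904 (31.8%). Of the 2556 genes at least 2-fold different in wild-type mice and also tested in Gnb5+/− mice, 2481 were called there in the same direction. In Gnb5−/− mice the number was 2518 of 2561. Over all calls tested in both, those shared in the same direction made up 85.6% of the wild-type and 83.0% of the Gnb5+/− calls, and 94.1% of the wild-type and 77.6% of the Gnb5−/− calls.

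The log2 differences of the chamber markers were as follows. Nppa was 6.80, 7.003 and 6.41 in Gnb5+/+, Gnb5+/− and Gnb5−/− mice, Sln 7.09, 7.13 and 7.77, Myl7 6.68, 6.79 and 7.05, Myh7 −4.86, −5.07 and −5.70, and Myl2 −6.15, −8.07 and −7.57. List medians, in the same order, were −1.24, −1.36 and −1.27 for fatty acid genes, −0.82, −0.91 and −0.92 for complex I, 0.37, 0.69 and 0.72 for the muscarinic list and 0.93, 0.62 and 0.62 for the natriuretic list. Gnb5 itself was at 25.1, 12.4 and 1.46 CPM at the atrial medians and 21.9, 10.9 and 1.11 CPM at the ventricular medians in that order, normalized over all 36 heart libraries, which follows the genotype labels, and its chamber difference was 0.19 in Gnb5+/− and 0.44 in Gnb5−/− mice.

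Whether a gene's chamber difference changed with genotype was tested as an interaction over all 36 heart libraries, with the mouse as a block. Of 16507 genes tested, 0 were called (0%) for Gnb5+/− and 0 (0%) for Gnb5−/− mice by edgeR, with 865 and 640 at an unadjusted p below 0.05. Without the filter on low counts 89 and 97 were called, a setting in which adjusted p of some chamber differences fell far as well (given below). With the filter the lowest adjusted p was 0.0543 for Gnb5+/− and 0.0649 for Gnb5−/− mice. In both cases it was that of Fam81a, which is named for that alone. Among the genes above, Hcn4 was −0.81 in wild-type, 0.80 in Gnb5+/− and 0.59 in Gnb5−/− mice, with interactions of 1.59 (SE 0.50, unadjusted p 0.00398, adjusted p 0.908) and 1.38 (SE 0.52, unadjusted p 0.0138, adjusted p 1). Hcn2, the gene above with the lowest unadjusted p, was −1.50 and −2.29 in wild-type and Gnb5−/− mice, with an interaction of −0.79 (unadjusted p 1.39e-04, adjusted p 0.164). Adcy1, which was 4.95 and 4.18 in wild-type and Gnb5−/− mice, had an interaction of −0.76 (unadjusted p 4.07e-04, adjusted p 0.292). These did not pass the adjustment, and a p that misses the threshold does not show that the genotypes were alike.

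**Figure D5:**
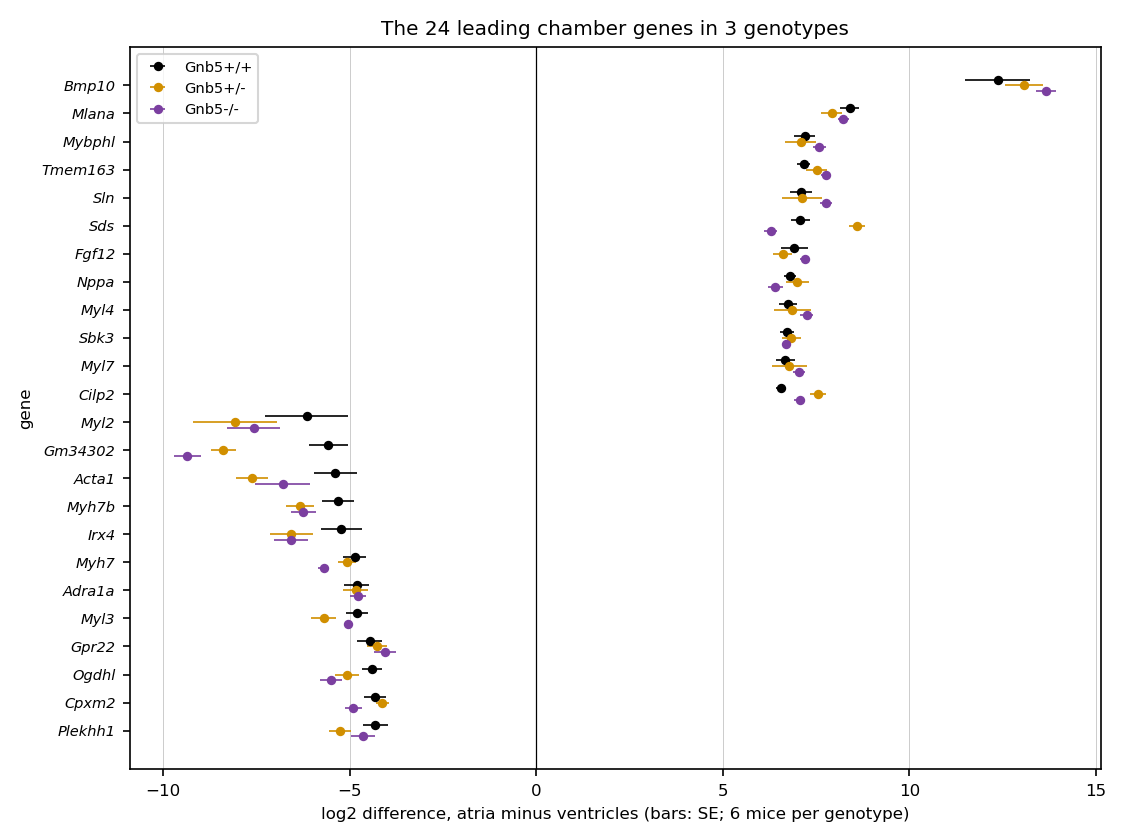
The log2 difference (atria minus ventricles, with its SE) of the 24 leading chamber genes is given for Gnb5+/+ (black), Gnb5+/− (orange) and Gnb5−/− (purple) mice, 6 per genotype. All 24 keep their side in the 3 genotypes, and the ventricular genes Myl2, Gm34302, Acta1 and Irx4 lie closer to 0 in wild-type mice, with wide errors.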

How the data were processed

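Total RNA of whole atria and ventricles was sequenced by the study from stranded, ribosomal RNA-depleted single-end libraries. The authors deposited raw read counts per Ensembl gene, 1 table per library. Per the labels' processing notes and the study's methods, reads were trimmed with cutadapt 1.8, freed of ribosomal and low-complexity reads, aligned to GRCm38 with STAR 2.5.3a and counted with HTSeq 0.9.1, which leaves out reads that align to several places. Lines of the count tables that name no gene stayed out of library sizes and tests. They held 4.41% to 6.57% of counted reads as reads outside genes. There were 0 other per-sample columns.

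Groups were taken from the sample titles and mice from the mouse number in each title. Of 53715 gene IDs, 53620 had a symbol in the annotation. Counts were filtered with filterByExpr (minimum count 10), TMM-normalized and fitted with edgeR 4.0.16 (quasi-likelihood F test, mouse as a block, R 4.3.3), and p-values were Benjamini-Hochberg adjusted over all genes tested, with a threshold of 0.05. Gnb5+/− and Gnb5−/− mice were fitted alone, and interactions over 36 libraries. The SE of a log2 difference was computed from the F statistic. Shares and marker sums were tested with the two-sided exact sign-flip permutation test over 6 mice (64 sign patterns). The scripts were tested on simulated counts. Samples of the same number come from the same mouse by their titles, which is why they were paired. The deviations of the atria and ventricles of a mouse from their chamber means correlated at 0.0785 (mouse 16) to 0.44 (mouse 18). For mouse 16 the best correlation was not with its own other chamber, as it was for every other mouse. Alternatives were no replicate block, DESeq2 1.42.0, RLE factors, total and nuclear total counts, other filters and each mouse left out.

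Named genes were the 6 markers, the 12 protein-coding genes of largest difference in each direction with at least 10 CPM, from each list up to 6 members of smallest adjusted p in each direction, the most abundant members and members that did not pass, and Gnb5. Genes named for not reaching the filter, Fam81a and the genes of the closing observations were named after their values were seen. Some list members are not reported here by name and are counted in the list totals. The members and the lists were chosen with earlier results of these data known. Promoter windows and their build came from RefSeq tables and were matched by symbol for 11092 of 15147 genes tested (73.2%), leaving out 149 genes whose RefSeq starts lay over 500 bases from every annotated transcript start, gene positions from the annotation of GRCm38. The 1 list symbol without a match was Adrbk1, an older name. A level per kilobase is CPM divided by the summed exon length of the gene.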

Additional observations from a re-analysis of the deposited data

Results flagged for a closer look

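In 58 groups of 6 libraries, 1 library's distance from its nearest neighbour was compared with the range of the group. It exceeded Dixon's critical value for 6 samples in 8 groups. The critical value is set for about 1 in 20 groups by chance, which holds for independent groups of normally distributed values. The groups here come from the same libraries and include genes with almost no reads in a chamber, such as Bmp10 in ventricles. The 8 groups are therefore not read as an excess.

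Among the library measures, the ventricles of mouse 8 had the highest share of reads outside genes, 5.52% against 4.41% to 4.73% in the other ventricles. The atria of mouse 16 had the highest mitochondrial share of the atria, 34.5% against 23.4% to 26.4%. In the ventricles of mouse 17, Bmp10 was at 12.2 CPM against 0 to 0.202 CPM in the other 5, and Acta1 at 1257 CPM against 239.6 to 487 CPM. Gm34302 was at 38.3 CPM in the ventricles of mouse 8 against 4.49 to 13.1 CPM, and Myh7b at 145 CPM in those of mouse 18 against 98.4 to 111 CPM. In the atria of mouse 16, the ventricular genes Gpr22 and Plekhh1 were at 6.55 and 1.45 CPM, against 0.403 to 2.30 and 0.366 to 0.509 CPM in the other 5. What these values share was not tested.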

How the results depend on the processing

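Without the replicate block, that is without pairing by mouse, 3715 genes were higher in atria and 3882 in ventricles, in place of 3947 and 4035. DESeq2, RLE factors and the other filters on low counts left these counts and those of 2-fold differences within 1.5 times, and so did leaving out 1 mouse (3485 to 4178 and 3518 to 4290). Total counts gave 9000 and 1487, and 2929 and 474 at least 2-fold, and nuclear totals 6171 and 2557. By construction these scales move every gene by nearly the same amount. Without a filter, interactions were called for 89 genes in Gnb5+/− and 97 in Gnb5−/− mice, and without the replicate block for 2 in Gnb5−/− mice, in place of 0. The wild-type chamber fit without a filter also took adjusted p of Hcn4 from 0.00706 to 1.65e-09 and of Nppb from 1.82e-04 to 2.23e-19. Their log2 differences hardly moved (−0.81 for Hcn4, 0.93 and 0.94 for Nppb). Not all genes followed, as Slc8a1 went from 0.196 to 0.355. The cause was not tested.

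With total counts the sign turned for Myh6 (0.43), Tnnt2 (0.0052), Tnni3 (0.0024), Gata4 (0.21), Atp2a2 (0.11), Ryr2 (0.062), Slc8a1 (0.31), Gnai2 (0.13), Kcnj11 (0.14), Kcnd2 (0.086), Kcnj2 (0.035), Gja1 (0.076), Gjc1 (0.030), Adrb1 (0.22), Bmpr2 (0.31), Acvrl1 (0.035), Mki67 (0.076) and Top2a (0.12). With nuclear totals it turned for Myh6 (0.19), Slc8a1 (0.064) and Bmpr2 (0.065). Myh6 was at 0.0062 with a filter on mean CPM, at 0.075 without mice 16 and 18 and between −0.093 and 0.044 with 1 mouse left out, Nkx2-5 was then between −0.0042 and 0.24, and Top2a between −0.52 and 0.011. Depth limits genes near 0 in a chamber, such as Bmp10 in ventricles, whose fitted fold rests on a few reads.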

Other observations

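The lists of this section were put together after the values had been seen, so they are given as a description. Imprinted genes, of which the growth-related ones are most active before birth, were higher in atria in 14 of 20 tested and in ventricles in 2, with a median of 0.84 beside −0.0011 over all genes (1.28 with total counts). H19, a long non-coding RNA, was at 119.5, 256 and 354 CPM in atria and 16.7, 18.9 and 30.7 CPM in ventricles (log2 difference 3.5). Its neighbour Igf2, a growth factor gene of the same imprinted cluster, was low but in the same direction (3.93 and 0.452 CPM at the medians, 3.00). The zinc finger genes Peg3 and Plagl1 stood out as well, Peg3 at 129, 141 and 165 against 15.2, 16.5 and 19.8 CPM (3.10) and Plagl1 at 30.3, 38.5 and 49.8 against 1.82, 2.10 and 2.40 CPM (4.19), and neither overlapped between chambers. Usp29, next to Peg3, was near 0 in ventricles (6.37). Grb10, an adaptor that restrains growth, was higher in ventricles (−0.89). The differences of H19, Peg3 and Plagl1 were 3.26, 3.19 and 4.12 in Gnb5+/− mice and 2.90, 3.41 and 3.80 in Gnb5−/− mice.

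Of 20 cell division genes tested, 4 were higher in ventricles and 0 in atria, and 3 of the 4 were far from the rest. Cenpf, of the kinetochore, was at 23.2, 35.5 and 62.2 CPM in ventricles and 1.46, 2.84 and 11.5 CPM in atria (−3.43). Sgo2a, which guards chromosome cohesion, and Polq, a DNA repair polymerase, differed by −3.28 and −4.31, also without overlap. The common proliferation genes Mki67 and Top2a were not called (−0.37 and −0.32, adjusted p 0.203 and 0.349), with signs that turned with total counts. Without mice 16 and 18 Cenpf was at −4.01. With total counts 5 of the list were called in atria and 3 in ventricles. Cenpf, Sgo2a and Polq differed by −3.50, −3.36 and −4.39 in Gnb5+/− mice, where the list had 3 called in atria and 3 in ventricles of 21 tested (median 0.51). In Gnb5−/− mice they differed by −4.34, −3.71 and −4.55, with 0 and 5 of 22 (median −0.26).

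Fibroblast growth factors differed by member, 6 higher in atria and 5 in ventricles of 12 tested. Besides Fgf12, the secreted Fgf7 was atrial (2.85), and Fgf16, Fgf9 and Fgf6 were ventricular (−3.68, −2.90 and −4.25), Fgf16 at 9.01, 12.8 and 16.1 against 0.212, 1.01 and 2.21 CPM. Fgf13, like Fgf12 an intracellular partner of sodium channels, went the other way from it (−0.81).

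Hormone and peptide signals were higher in atria in 11 and in ventricles in 4 of 16. Hamp, hepcidin, the regulator of iron export, was at 34.6, 54.7 and 77.8 CPM in atria and 0.240, 0.540 and 1.20 CPM in ventricles (6.52). Rxfp1, the relaxin receptor, was at 57.0, 71.4 and 109 against 0.617, 1.15 and 1.54 CPM (6.12). The receptors Ptgfr, of prostaglandin F, Npy1r, of neuropeptide Y, and Vdr, of vitamin D, were atrial by 4.48, 4.70 and 4.68. Uts2b, a urotensin peptide gene, had reads in atria alone, 1.64, 1.99 and 6.57 CPM, and is given without a fold. Edn3, endothelin 3, Agtr1a, the angiotensin receptor, and Bdnf, a neurotrophin, were ventricular by −5.45, −1.72 and −3.32.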
